A study of Mus musculus with 14 samples.

Results

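The insulin-like growth factor axis was followed here as 8 genes named by symbol: the ligands Igf1 and Igf2, the receptor Igf1r, and the binding proteins Igfbp2, Igfbp3, Igfbp4, Igfbp5 and Igfbp7. They are 8 of the 55335 features in the count matrices, and all 8 were found by symbol. They had been picked because Igf1 was known to differ between SOD1G93A and nTg microglia in these same libraries, so that contrast is given as values only, with no test. Mouse spinal cord, taken at P115-120 (postnatal days), was dissociated with enzymes in a 37 °C water bath, freed of myelin with beads and profiled as single cells with 10x Chromium 3' v3.1 chemistry. The 3 SOD1G93A libraries come from the strain B6SJL-Tg(SOD1*G93A)1Gur/J, which carries many copies of a human SOD1 transgene with a mutation that causes amyotrophic lateral sclerosis. The 4 Clec7a-KO libraries come from B6.129S6-Clec7atm1Gdb/J, a germline knockout of the beta-glucan receptor gene Clec7a (Dectin-1). The 4 SOD1G93A/Clec7a-KO libraries have both alterations, and the 3 nTg libraries have neither. All 4 groups thus share tissue, age and dissociation, but by strain name the transgenic and knockout lines do not share a genetic background, which cannot be told apart from genotype. Xist exceeded the Y-linked gene Ddx3y, as in female tissue, in 2 of 3 nTg, 0 of 3 SOD1G93A, 1 of 4 Clec7a-KO and 1 of 4 SOD1G93A/Clec7a-KO libraries, so the groups also differ in sex. Nothing in the labels says that numbered libraries of a group came from separately housed or bred animals, so p-values measure the spread between these libraries. The study's design text asks how Clec7a regulates microglial responses in this model, and the comparisons below ask which cell class held RNA of each Igf axis gene in each group.

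Igf1 is a secreted growth factor that binds the receptor tyrosine kinase Igf1r, whose signal runs through the Irs adaptors to PI3K, Akt and mTOR and favours growth and survival. Igf2, its paralogue, is best known as a fetal growth factor and is cleared by the scavenging receptor Igf2r. Binding proteins of the Igfbp family hold the ligands outside the cell and lengthen or limit their action, while Igfbp7 binds them weakly and is a known product of blood vessels. In the adult central nervous system Igf1 is known as a product of some neurons, perivascular cells and activated microglia.

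Cells were grouped into classes by clustering without the Igf axis and pathway genes, and a class name stands for clusters that resemble that cell type by a list of markers. The 89756 cells kept out of 108892 barcodes formed 25 clusters, of which 10 were microglia with 52529 cells, from 1023 to 7585 in a library. Total UMIs (unique molecular identifiers, counts of captured RNA molecules) ranged from 28819852 to 141204910 per library. Any 2 libraries shared between 2 and 44 cell barcodes, at most 0.474% of them. The other tested classes were endothelial cells (11364 cells), ependymal cells (7658), astrocytes (5817), oligodendrocyte precursors (3930), mural cells (1722), neurons (1265), T and NK cells (745) and border-associated macrophages (524). Cluster 15, with 3990 cells that carried both endothelial and mural markers, was tested under its number. No cluster was named oligodendrocytes. Clec7a itself was at 883 to 1035 CPM in SOD1G93A microglia, 28.8 to 85.4 in nTg, 0.739 to 2.46 in Clec7a-KO and 1.98 to 3.79 in SOD1G93A/Clec7a-KO. CPM means UMIs per 1e+06 UMIs of the class after TMM scaling, and CPM are compared here for 1 gene across classes and groups, not between genes. Values of single clusters and of fibroblasts carry no TMM factor, and CPM of a cluster use the UMIs of that cluster. They are thus not on the scale of the class values, where TMM factors in microglia ran from 0.769 to 1.24. The library SOD1G93A/Clec7a-KO replicate 4 was the thinnest, with 35 astrocytes and 28 ependymal cells.

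The 2 members that rose in microglia, Igf1 and Igfbp5, are shown first by the DNA around their RefSeq transcription starts (GRCm38.p6, 250 bases before to 50 after), since both moved together in 1 class. The window of Igf1 is chr10:87860861-87861160 on the plus strand and lies inside the longer gene model of the GENCODE annotation. That of Igfbp5 is chr1:72874816-72875115 on the minus strand. Capitals mark GAGGAA, a core of the motif of the myeloid factor PU.1, searched on both strands; both sequences are written 5′ to 3′ on the gene's strand.
Igf1 promoter: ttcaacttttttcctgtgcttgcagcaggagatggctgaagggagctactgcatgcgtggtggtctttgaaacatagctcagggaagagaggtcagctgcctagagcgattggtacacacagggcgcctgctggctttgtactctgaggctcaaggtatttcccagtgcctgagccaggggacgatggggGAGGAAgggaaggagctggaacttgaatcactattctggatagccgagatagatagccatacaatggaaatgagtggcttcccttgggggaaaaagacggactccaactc
Igfbp5 promoter: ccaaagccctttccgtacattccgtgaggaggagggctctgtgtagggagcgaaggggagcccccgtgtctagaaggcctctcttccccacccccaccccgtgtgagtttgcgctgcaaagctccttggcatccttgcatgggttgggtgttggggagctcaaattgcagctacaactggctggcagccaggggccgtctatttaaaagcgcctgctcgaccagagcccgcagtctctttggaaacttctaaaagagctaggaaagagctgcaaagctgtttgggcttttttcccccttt
GAGGAA occurred once in the Igf1 window, at position -60 from the start, and not in that of Igfbp5. It is a common word: 28.3% of 32851 promoter windows of this length held it on 1 strand or the other. The C/EBP-type motif TTGCNNAA, held by 10.8% of windows, and the E-box CACGTG, held by 7.15%, occurred in neither window; these motifs do not overlap GAGGAA. Among the other members, GAGGAA occurred in 3 of 4 windows of Igf2 and in 1 of 2 of Igfbp2, both low in microglia, and CACGTG occurred in 1 window of Igfbp2, at position -142. Such matches describe letters and show no binding.

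Among the 10 tested classes, most members had 1 that held their highest group mean in every group, while the leading class of Igf1 and of Igfbp5 differed between groups. Igf2, at or near 0 in every tested class, is not ranked. In nTg and Clec7a-KO the highest Igf1 level was in border-associated macrophages, and in SOD1G93A and SOD1G93A/Clec7a-KO it was in microglia; in all 4 groups the libraries of the leading class did not overlap those of the next. Igf1r was highest in endothelial cells, Igfbp2 in astrocytes, Igfbp3 in oligodendrocyte precursors, Igfbp4 in border-associated macrophages and Igfbp7 in mural cells. Igfbp5 was highest in ependymal cells in nTg, Clec7a-KO and SOD1G93A/Clec7a-KO and in astrocytes in SOD1G93A. The libraries of both classes overlapped in SOD1G93A, and also in Clec7a-KO and SOD1G93A/Clec7a-KO. These are RNA levels, and protein was not measured. The 89 fibroblasts, too few to test, held 0 to 508 CPM of Igf1 by library, and 237 in nTg when pooled (24 UMIs). Pooled over all libraries without TMM, they held 1252 CPM of Igfbp2, 95.1 of Igfbp3, 295 of Igfbp4 and 373 of Igfbp5. The highest tested class of each, pooled alike, held less. These were 444 in astrocytes, 72.4 in oligodendrocyte precursors, 191 in border-associated macrophages and 259 in ependymal cells. The order of classes is a description, since the classes were formed from the same cells.

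**Figure D1:**
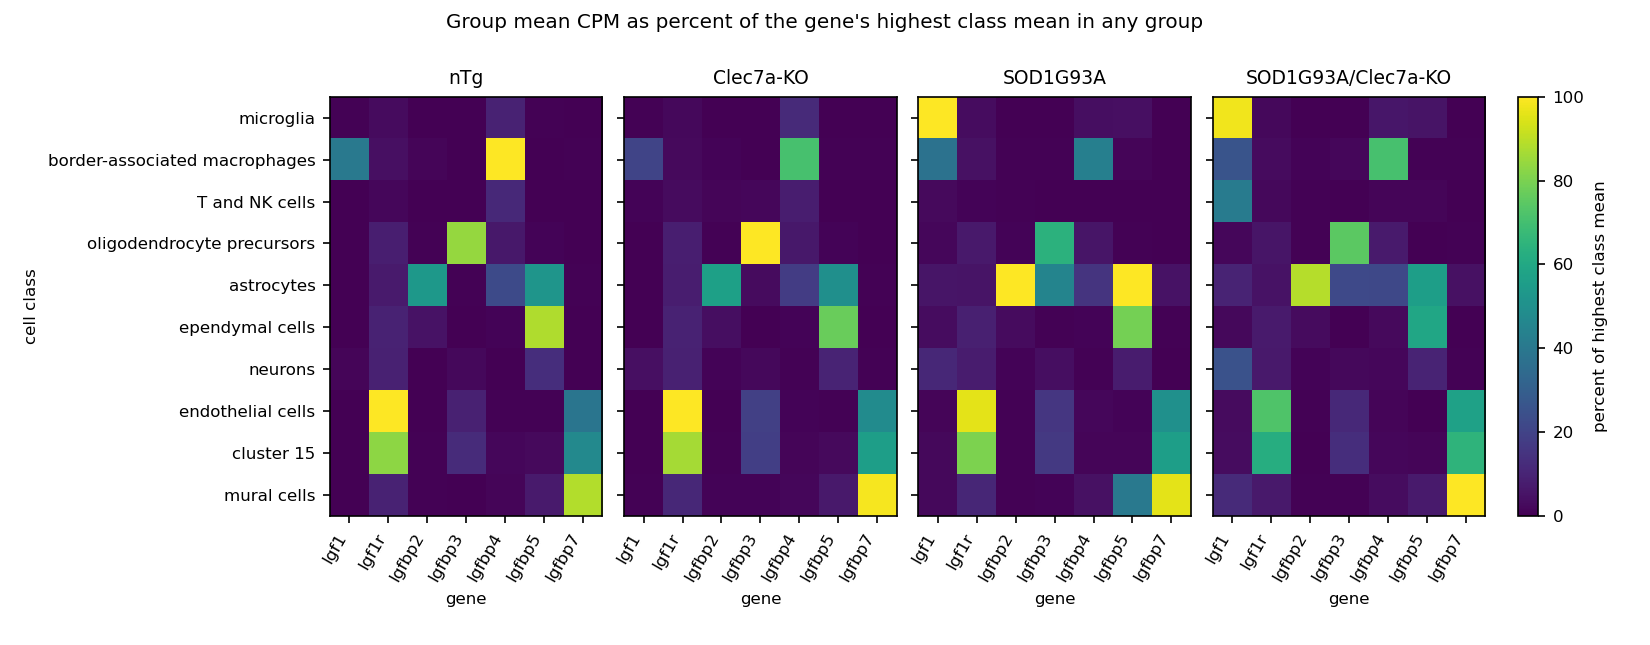
Group means of 7 Igf axis genes (columns) in 10 cell classes (rows), 1 panel for each group; colour is the mean CPM as a percent of that gene's highest class mean in any group. The microglia row of the Igf1 column is dark in nTg and Clec7a-KO and bright in SOD1G93A and SOD1G93A/Clec7a-KO, while the bright cells of Igf1r, Igfbp3 and Igfbp7 stay in the same rows.

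Between SOD1G93A/Clec7a-KO and Clec7a-KO, which both lack Clec7a and differ in the transgene, 51 pairs of a member and a class passed the filter on low counts, and 11 were called higher and 1 lower (edgeR quasi-likelihood test on UMIs summed per library and class, Benjamini-Hochberg adjusted p under 0.05 over all genes of the class). Over all genes of the 10 classes the same rule called 12.3% of tests. Igf1 was called higher in 7 of the 9 classes in which it was tested, and Igfbp3, Igfbp4, Igfbp5 and Igfbp7 each in 1 class. Igf1r fell in 1 class. Of the 11 pairs called higher, 4 had libraries of both kinds past the filter: Igf1 and Igfbp5 in microglia, Igfbp7 in astrocytes and Igfbp4 in ependymal cells. The other 7, Igf1 in 6 classes and Igfbp3 in astrocytes, passed only through libraries with the transgene, so they had to differ, and their p-values below are no independent support. Members passed the filter unevenly, 6 of 8 in microglia, 7 of 8 in astrocytes, endothelial cells and cluster 15, 6 in ependymal cells and oligodendrocyte precursors, 5 in neurons, 3 in mural cells and border-associated macrophages and 1 in T and NK cells, and Igf2 passed in none. These counts are read only beside the share of all genes. In microglia 2 of 6 members were called against 46.5% of all 16735 genes, in astrocytes 4 of 7 against 33.4%, and in endothelial cells 1 of 7 against 0.787%. The endothelial call, Igf1, and the astrocyte calls of Igf1 and Igfbp3 passed the filter only through libraries with the transgene. They therefore add nothing to a comparison with these shares.

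Between SOD1G93A/Clec7a-KO and SOD1G93A, which differ in Clec7a, 1 of 51 pairs was called (0.138% of all tests), Igf1 in T and NK cells, with 5 at an unadjusted p under 0.05 and 1 by DESeq2. Between Clec7a-KO and nTg 0 of 51 were called by edgeR (0.0136% of all tests), 1 was at an unadjusted p under 0.05, 0 were called by DESeq2, and the lowest adjusted p was 0.432. The values below therefore mostly contrast libraries with and without the transgene. At an unadjusted edgeR p under 0.05, all genes gave from 485 of 11631 (neurons) to 639 of 3382 (T and NK cells) between SOD1G93A/Clec7a-KO and SOD1G93A. Between Clec7a-KO and nTg they gave from 210 of 13207 (endothelial cells) to 262 of 3544 (border-associated macrophages). No excess of members is read from the unadjusted counts. Comparisons share groups: Clec7a-KO enters 2 of the 3 tested contrasts and SOD1G93A/Clec7a-KO enters 2. Of the 51 pairs, 4 had no overlap between SOD1G93A/Clec7a-KO and SOD1G93A, and 3 had none between Clec7a-KO and nTg. Exchangeable libraries, 4 against 3, would lack overlap at a rate of 0.0571. The share over all genes was not counted, so no Clec7a effect is read from a lack of overlap below.

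In microglia, the resident macrophages of nervous tissue, Igf1 was low without the transgene and abundant with it. The 3 nTg libraries held 4.22, 0.448 and 3.86 CPM of Igf1 in microglia, and the 4 Clec7a-KO libraries held 2.16, 3.73, 2.30 and 4.19. The SOD1G93A libraries held 373, 471 and 459 CPM, and the SOD1G93A/Clec7a-KO libraries 424, 490, 452 and 331. Every library with the transgene lay far above every library without it, and within each of these sets the Clec7a genotypes overlapped. The log2 fold change of SOD1G93A/Clec7a-KO over Clec7a-KO was 7.11 (SE 0.49, 95% interval 6.06 to 8.16, edgeR adjusted p = 1.2e-07), with all 4 libraries above all 4. Against SOD1G93A it was -0.03 (interval -0.88 to 0.82, edgeR adjusted p = 0.977), and for Clec7a-KO against nTg it was 0.10 (interval -0.88 to 1.08, edgeR adjusted p = 1). These intervals leave room for a change of up to about 1 log2 unit either way by Clec7a genotype. The contrast used to choose the members, SOD1G93A over nTg, had a log2 fold change of 7.25, from means of 434 ± 53.4 CPM (SD, n = 3) and 2.84 ± 2.08 (n = 3).

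The summed CPM of 12 microglia markers in the microglia class lay between 19066 and 22118 in nTg, 20561 and 27187 in Clec7a-KO, 25293 and 29922 in SOD1G93A, and 26993 and 32262 in SOD1G93A/Clec7a-KO, with 0 of 12 markers absent. The median mitochondrial share over a library's barcodes, a sign of RNA quality, was 2.61% to 4.46% in nTg, 1.90% to 4.60% in Clec7a-KO, 1.47% to 2.15% in SOD1G93A and 0.889% to 1.58% in SOD1G93A/Clec7a-KO and thus lower with the transgene in both Clec7a genotypes. With cells of at most 5% alone, the log2 fold change of Igf1 was 7.12. Border-associated macrophage markers in that class summed to 2.06 to 18.3 CPM in Clec7a-KO and 77.1 to 123 in SOD1G93A/Clec7a-KO; their part in the result was not tested. Microglia of the 2 groups came mostly from different clusters, 3 and 13 in Clec7a-KO and 2, 6, 5 and 1 in SOD1G93A/Clec7a-KO. Scaling to library totals in place of TMM moved the median log2 fold change of all microglia genes from 0.00 to -0.51, and relative to that shift Igf1 was still higher. Of the genes called in microglia 55.1% were higher with TMM, 50.9% with RLE factors, 51.0% with DESeq2 and 19.6% with library totals. The same change of scale moved the medians of T and NK cells by -0.15 and of neurons by -0.12, and the share called higher from 76.1% to 61.9% in T and NK cells and from 74.6% to 60.8% in oligodendrocyte precursors.

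**Figure D2:**
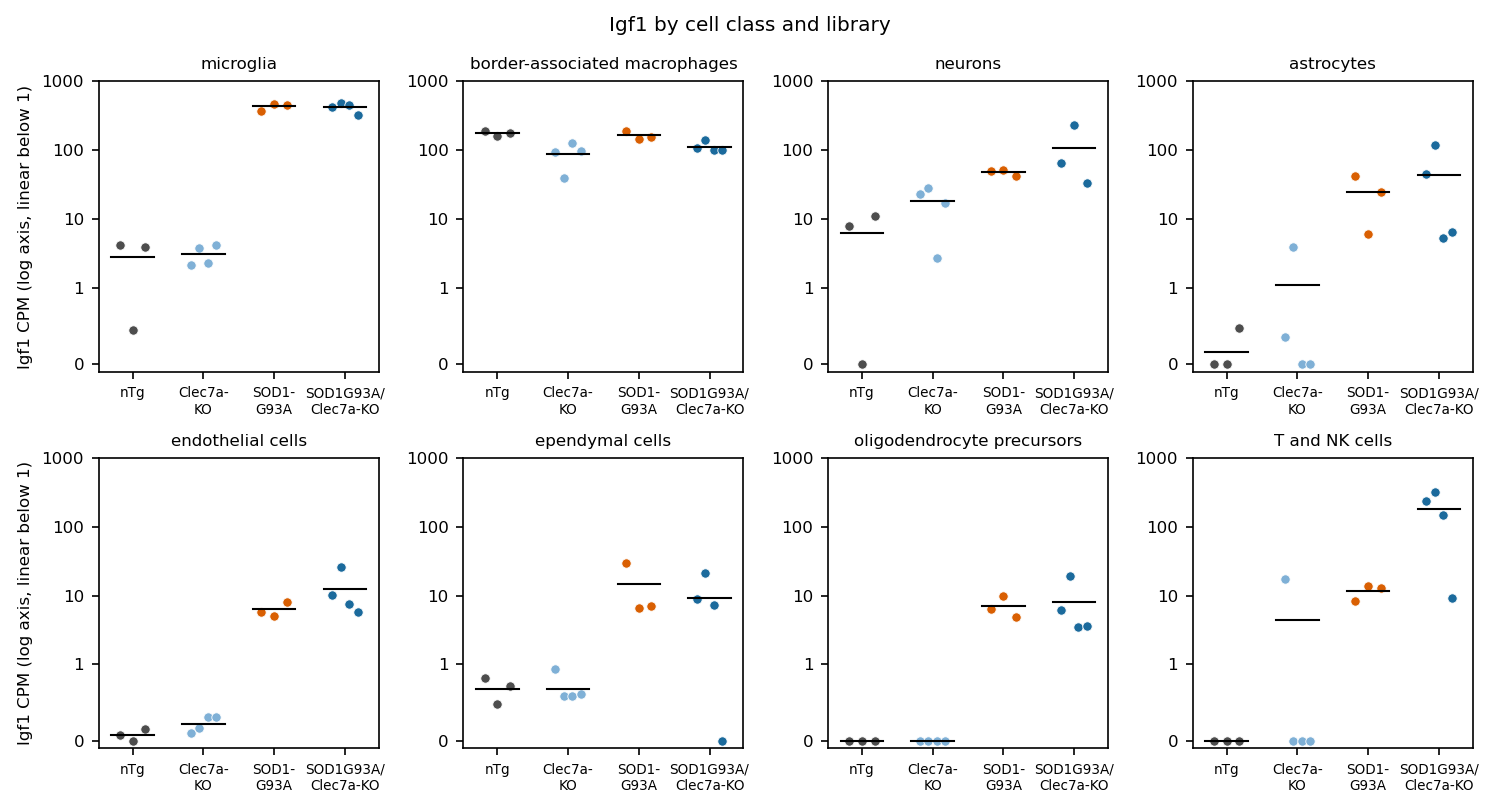
Igf1 level in CPM (log axis, linear below 1) in 8 cell classes, with 1 point per library of at least 10 cells of the class and a line at the group mean. In microglia the SOD1G93A and SOD1G93A/Clec7a-KO libraries sit between 331 and 490 and the others at or below 4.22, while in border-associated macrophages all 4 groups lie between 39.6 and 192.

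The higher level was spread over many cells. After each cell was thinned to 2000 UMIs, 34.4%, 40.8% and 42.0% of SOD1G93A microglia and 39.2%, 45.4%, 39.6% and 29.9% of SOD1G93A/Clec7a-KO microglia held at least 1 Igf1 UMI. Among nTg microglia the shares were 0.552%, 0.0486% and 0.919%, and among Clec7a-KO microglia 0.219%, 0.287%, 0.534% and 0.499%. The sets with and without the transgene did not overlap. The difference of SOD1G93A/Clec7a-KO minus Clec7a-KO was 38.1 percentage points (exact permutation test, two-sided, p = 0.0286, the smallest that 4 against 4 libraries can give, adjusted over 3 tests 0.0857). SOD1G93A/Clec7a-KO minus SOD1G93A was -0.55 points (exact permutation p = 0.914, adjusted 0.914) and Clec7a-KO minus nTg -0.12 points (exact permutation p = 0.629, adjusted 0.914); with 4 against 3 libraries p cannot go below 0.0571. Without thinning the group means were 1.30% in nTg, 1.16% in Clec7a-KO, 73.1% in SOD1G93A and 71.9% in SOD1G93A/Clec7a-KO. In endothelial cells, ependymal cells, oligodendrocyte precursors and astrocytes of the same libraries the thinned share was between 0% and 3.77% in each library, except for 12.6% of the astrocytes of 1 SOD1G93A/Clec7a-KO library, at class median depths of 2362 to 12528.5 UMIs.

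Among the kept cells, microglia held 97.8% to 99.4% of the Igf1 UMIs of each transgenic library and 20.0% to 61.8% of those of each library without the transgene. This share depends on how many cells of each class were captured as well as on the level per cell.

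Igf1 was not even across microglia. Pooled over cells, cluster 5, led by Spp1 and Gpnmb, genes of lipid-laden and disease-associated microglia, held 675 CPM of Igf1 in SOD1G93A and 613 in SOD1G93A/Clec7a-KO. Cluster 0, led by Spp1 and the chemokine gene Ccl4, held 421 and 448, cluster 6, led by Lyz2 and C1qa, 399 and 393, and the dividing cluster 4, led by Mki67, 301 and 277. Cluster 2, led by Il1b and Ccl4, held 226 and 296, and cluster 1, led by Ccl4 and C1qa, 168 and 242. The clusters led by the homeostatic gene P2ry12 held less in the same groups: 53.3 and 42.8 in cluster 3 and 27.1 and 39.7 in cluster 13. Cluster 9, led by Hbb-bs and P2ry12, held 77.0 and 118, from 32 and 26 UMIs. Cluster 10, led by Cx3cr1 and Xist, held 15.8 in SOD1G93A/Clec7a-KO, from 9 UMIs, and had no SOD1G93A cell. At least 10 of its cells were found in 2 nTg, 1 Clec7a-KO, 0 SOD1G93A and 1 SOD1G93A/Clec7a-KO libraries. These are the numbers of libraries with Xist above Ddx3y in each group, so the cluster cannot be told apart from sex. Libraries without the transgene supplied few cells to clusters 0, 1, 2, 4, 5 and 6, and these cells were uneven. The 39 nTg cells of cluster 6 held 252 CPM, from 58 UMIs or 28.7% of the Igf1 UMIs of nTg microglia, and its 65 Clec7a-KO cells held 81.6. In cluster 2 the nTg and Clec7a-KO cells held 72.7 and 45.5 CPM, and in cluster 1 they held 26.5 and 24.6. The 56 Clec7a-KO and 26 nTg cells of cluster 4 held 0 and 3 Igf1 UMIs. The 54 nTg and 69 Clec7a-KO cells of cluster 0 had 51.3 and 46.7 CPM, while the 996 and 3935 cells of those groups in cluster 3 had 0 and 0.534. Within clusters 0, 3 and 13 Igf1 was thus higher in the pooled cells of the transgenic groups too. Cluster shares are not compared between groups here, since the genes that define the clusters differ between them. Cluster 2 held 37.6% of SOD1G93A/Clec7a-KO microglia, cluster 0 held 47.4% of SOD1G93A microglia, and clusters 3 and 13 held 40.2% and 37.2% of Clec7a-KO microglia. Cluster 10 held 51.0% of nTg microglia with 1.43 CPM of Igf1.

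**Figure D3:**
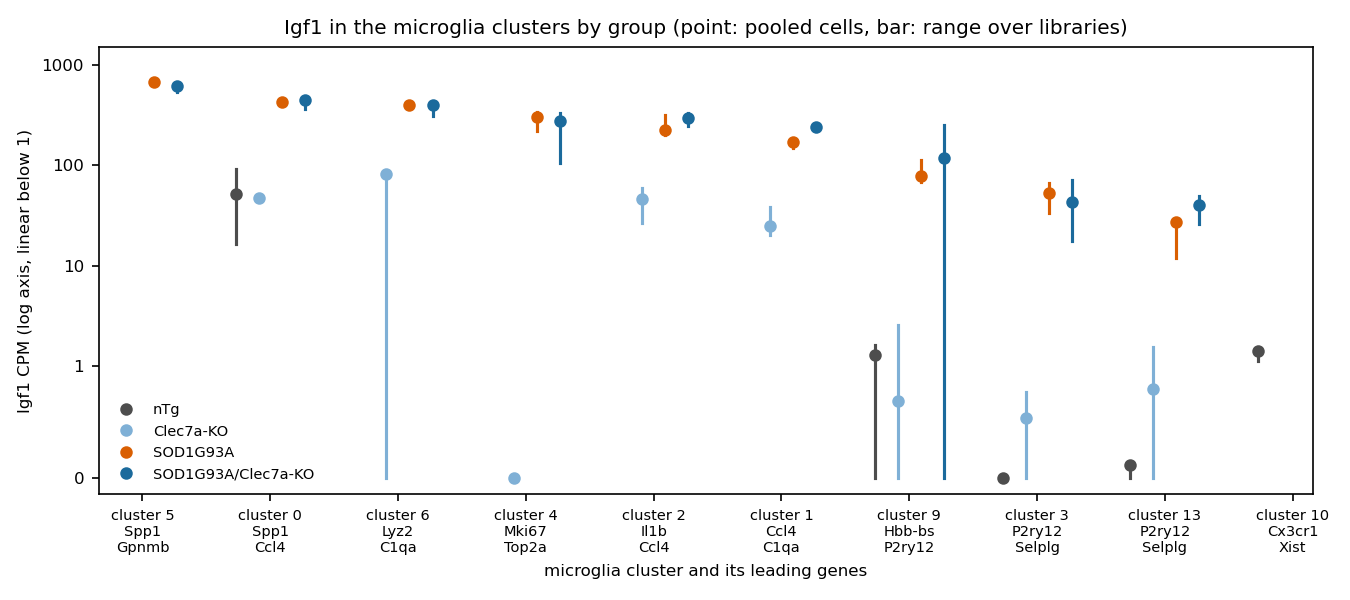
Igf1 level in CPM (log axis, linear below 1) in the 10 microglia clusters, each named by its leading 2 genes; points are the pooled cells of a group, bars the range over libraries with at least 10 cells, and a group is drawn only where at least 2 libraries have them. Levels in SOD1G93A and SOD1G93A/Clec7a-KO fall from cluster 5 (675 and 613) to cluster 13 (27.1 and 39.7) and their points lie above those of nTg and Clec7a-KO in each cluster where both are drawn.

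Igf1 was also called higher in 5 classes where it was near or at 0 without the transgene. In astrocytes, the Clec7a-KO libraries held 0.353, 3.98, 0 and 0 CPM of Igf1 and the SOD1G93A/Clec7a-KO libraries 44.9, 119, 5.24 and 6.57. The last 2 of these rest on 3 and 1 UMIs, against 104 and 122 in the first 2, so that the lack of overlap is at the level of single UMIs. The fitted log2 difference was 5.81, with SE 0.87 and an edgeR adjusted p of 6.8e-05, from 10 against 230 UMIs. It rested on few libraries: it was 7.66 without Clec7a-KO replicate 2, which held 8 of the 10 UMIs, 5.21 without Clec7a-KO replicate 1, and 4.83 without SOD1G93A/Clec7a-KO replicate 2, and was called each time. In endothelial cells the log2 fold change was 5.77 (SE 0.57, edgeR adjusted p = 8.1e-05), from means of 0.220 and 12.3 CPM, and 5.16 without SOD1G93A/Clec7a-KO replicate 2. The Clec7a-KO endothelial libraries had 1, 2, 2 and 2 Igf1 UMIs, and by counts the ratio of 138 to 7 UMIs was 55.3 per class UMI (95% counting interval 26.2 to 140). Cluster 15 gave 4.83 (SE 0.65, edgeR adjusted p = 0.00133; 0.901% of its genes were called higher), and 5.64 without Clec7a-KO replicate 1. Ependymal cells gave 4.15 (SE 0.60, edgeR adjusted p = 0.00100; 1.38% called higher), with 1 SOD1G93A/Clec7a-KO library, replicate 4, at 0 and thus overlap, and 3.56 without replicate 2 of that group. Oligodendrocyte precursors of Clec7a-KO and nTg held 0 Igf1 UMIs in all 7 libraries, and those of SOD1G93A/Clec7a-KO held 6.20, 19.5, 3.44 and 3.58 CPM. There 38 UMIs against 0 made the level at least 22.1-fold higher, with the 0 set at a floor of 3 UMIs over the group. The pair was called, as were 3.63% of genes in the upward direction, but it passed the filter on low counts only through the transgenic groups. In none of these 5 classes did a library without the transgene reach the level that the filter asks for. Counting intervals and floors cover counting error only.

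Microglia markers were also found in these classes, with 0 of 12 absent. They summed to 210 to 630 CPM in Clec7a-KO astrocytes and 1436 to 7092 in SOD1G93A/Clec7a-KO astrocytes, 116 to 371 and 395 to 1282 in endothelial cells, and 117 to 331 and 419 to 1093 in oligodendrocyte precursors. In cluster 15 the ranges overlapped, at 117 to 452 and 332 to 1785 CPM, as they did in ependymal cells, at 250.2 to 773 and 430.0 to 1917. In SOD1G93A/Clec7a-KO microglia there were 0.390 Igf1 UMIs per UMI of Cst7, a microglial gene of the disease-associated state. The ratio in the same libraries was 0.330 in astrocytes, 0.302 in endothelial cells, 0.344 in cluster 15, 0.331 in ependymal cells and 0.247 in oligodendrocyte precursors. In SOD1G93A the ratio was 0.408 in microglia and 0.244 to 0.430 in these 5 classes. The part of microglia RNA in the Igf1 of these classes was not tested.

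Border-associated macrophages, which live around vessels and in the meninges, held Igf1 in all groups. The nTg libraries had 192, 159 and 177 CPM of Igf1, the Clec7a-KO libraries 94.0, 39.6, 125 and 97.7, the SOD1G93A libraries 189, 148 and 155, and the SOD1G93A/Clec7a-KO libraries 106, 143, 101 and 101. Both groups that lack Clec7a lay below both groups that have it, without overlap, but neither difference passed the test. As said above, no Clec7a effect is read from such a lack of overlap. For Clec7a-KO against nTg the log2 fold change was -1.01 (interval -1.66 to -0.37, edgeR adjusted p = 0.432), and for SOD1G93A/Clec7a-KO against SOD1G93A -0.52 (interval -1.13 to 0.09, edgeR adjusted p = 0.803). The class is small, with 11 to 75 cells in a library. The transgene contrast gave 0.36 (interval -0.26 to 0.98, edgeR adjusted p = 0.669; 0.395% of genes were called in this class). Without the transgene its Igf1 came with little Cst7: Clec7a-KO cells held 83 Igf1 and 2 Cst7 UMIs, and nTg cells 80 and 0. With the transgene Cst7 was present, at 213 Igf1 and 207 Cst7 UMIs in SOD1G93A and 73 and 33 in SOD1G93A/Clec7a-KO.

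Neurons also held some Igf1 without Cst7 in the absence of the transgene, 109 against 2 UMIs in Clec7a-KO and 31 against 1 in nTg. Levels were 23.4, 28.5, 2.72 and 17.4 CPM in Clec7a-KO and 64.8, 230 and 33.6 in the 3 SOD1G93A/Clec7a-KO libraries with at least 10 neurons. These did not overlap, and the log2 fold change was 2.44 (interval 1.14 to 3.75, edgeR adjusted p = 0.0978). Microglia markers in the neurons summed to 476 to 1074 CPM in Clec7a-KO and 621 to 6492 in SOD1G93A/Clec7a-KO; their part in the result was not tested. The difference passed the threshold without SOD1G93A/Clec7a-KO replicate 3 (edgeR adjusted p = 0.0398). It also passed with doublets kept (2.80, edgeR adjusted p = 0.0170) and with no filter on low counts (2.36, edgeR adjusted p = 1.8e-12).

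In T and NK cells Igf1 was uneven. Clec7a-KO libraries held 17.6, 0, 0 and 0 CPM, from 3 UMIs, SOD1G93A libraries 8.43, 13.9 and 12.9, and SOD1G93A/Clec7a-KO libraries 237, 323, 151 and 9.12. The first 3 of the latter were high and the last lay within the range of the other groups. The log2 fold change was 4.77 against Clec7a-KO (SE 0.93, edgeR adjusted p = 0.0131; 5.26% of genes were called higher) and 3.95 against SOD1G93A (SE 0.69, edgeR adjusted p = 0.0238; 3.52% called higher). Igf1 passed the filter in this class only through SOD1G93A/Clec7a-KO replicates 1 to 3, so both tests rest on a gene let in by the group where it is high. By counts, 444 UMIs against 3 in Clec7a-KO made a ratio of 31.7 per class UMI (95% counting interval 10.8 to 154). Microglia markers in this class summed to 61.2 to 915 CPM in Clec7a-KO, 1201 to 1923 in SOD1G93A and 520 to 18085 in SOD1G93A/Clec7a-KO. The Igf1 to Cst7 ratio was 0.0821 in SOD1G93A and 0.411 in SOD1G93A/Clec7a-KO. In nTg this class held 25 Cst7 UMIs and 0 of Igf1, so its ratio is not read like those of the other classes. The part of microglia RNA in the result was not tested. The first call was lost without Clec7a-KO replicate 2 (4.21, edgeR adjusted p = 0.0885). Without Clec7a-KO replicate 1, which held all 3 UMIs, that group was at 0 and the fitted value, 8.80, is no bound. The second was lost without any 1 of the SOD1G93A libraries (edgeR adjusted p 0.110 to 0.173), and with doublets kept the log2 fold change was 0.55 (edgeR adjusted p = 0.846).

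Igf2 was at or near 0 in every tested class. In microglia it had 0 UMIs in 12 of 14 libraries, and its highest value in any library of a tested class was 3.15 CPM, in neurons. Fibroblasts held 3 to 7 Igf2 UMIs in each group, 29.7 to 71.9 CPM. No test was run on it.

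Igf1r, the signalling receptor, was highest in endothelial cells, with 1188 ± 49.5 CPM in nTg (SD, n = 3), 1189 ± 263 in Clec7a-KO (n = 4), 1138 ± 137 in SOD1G93A (n = 3) and 860 ± 200.5 in SOD1G93A/Clec7a-KO (n = 4). Cluster 15 came next, at 741 to 1027 CPM by group, and overlapped with the endothelial libraries in every group but nTg. All other tested classes lay well below, and microglia, the class with the highest Igf1 under the transgene, held 21.3 to 42.8 CPM of the receptor across the 14 libraries. The 123 neutrophils, too few to test, held 275 to 378 CPM of Igf1r by group when pooled without TMM, from 202 UMIs in all. In endothelial cells the log2 fold change of SOD1G93A/Clec7a-KO over Clec7a-KO was -0.47 (interval -0.88 to -0.06, edgeR adjusted p = 0.419), with overlapping libraries. In microglia it was 0.01 (interval -0.38 to 0.40, edgeR adjusted p = 0.972), and its sign turned under other scalings.

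Astrocytes, which support neurons and react to injury, were the only class in which the receptor's change was called. Igf1r stood at 93.7, 90.6, 113 and 78.4 CPM in Clec7a-KO astrocytes and at 69.5, 59.5, 59.4 and 46.0 in SOD1G93A/Clec7a-KO astrocytes. Every library of the second group lay below every library of the first. On the log2 scale the change was -0.61 (SE 0.16, edgeR adjusted p = 0.00632; 15.2% of astrocyte genes were called lower). With the mitochondrial share held to at most 5% it was -0.43 (edgeR adjusted p = 0.386). nTg and SOD1G93A astrocytes, given as values, held 78.5, 90.5 and 87.1 against 54.8, 61.2 and 68.4 CPM. Over the 9 classes tested the log2 fold change was below 0 in 7, with a median of -0.47, and 1 was called. It was below 0 in 8 with RLE factors, DESeq2 or library totals. For SOD1G93A/Clec7a-KO against SOD1G93A it was below 0 in 9 of 9, from -0.62 to -0.0068, and 0 were called. As values, SOD1G93A over nTg ran from -0.46 in astrocytes to 0.14 in mural cells, with -0.06 in endothelial cells and 0.12 in microglia. The classes share the same libraries.

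Igfbp5, a binding protein that attaches to extracellular matrix and to ligand, was the second member that rose in microglia. Its levels were 1.39, 0.65, 1.18 and 0.610 CPM in Clec7a-KO and 23.1, 7.43, 18.4 and 13.6 in SOD1G93A/Clec7a-KO microglia, without overlap. On the log2 scale the rise was 3.99 (SE 0.35, interval 3.23 to 4.75, edgeR adjusted p = 1.1e-06; 25.6% of microglia genes were called higher). As values, nTg microglia held 1.28, 1.64 and 1.06 CPM and SOD1G93A microglia 15.3, 11.7 and 12. Cluster 5 led for this gene as well, at 26.2 CPM in SOD1G93A and 33.6 in SOD1G93A/Clec7a-KO, against 1.48 and 1.28 in cluster 3. Even so the gene's highest levels were elsewhere. Ependymal cells, which line the central canal, held 184 to 271 CPM of Igfbp5 in Clec7a-KO and 123 to 210 in SOD1G93A/Clec7a-KO, with a log2 fold change of -0.34 (interval -0.76 to 0.08, edgeR adjusted p = 0.442). Astrocytes held 63.7 to 245 and 148 to 189 CPM (0.17, interval -0.64 to 0.97, edgeR adjusted p = 0.790).

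Igfbp4, a binding protein that mainly limits the action of its ligands, was highest among the tested classes in border-associated macrophages. Border-associated macrophages held 265, 297 and 390 CPM in nTg, 207, 101, 188 and 404 in Clec7a-KO, 170, 145 and 97.0 in SOD1G93A and 252, 206, 235 and 210 in SOD1G93A/Clec7a-KO. SOD1G93A lay below SOD1G93A/Clec7a-KO in every library, with a log2 fold change of 0.74 for the latter over the former (interval -0.0050 to 1.49, edgeR adjusted p = 0.803). In microglia Clec7a-KO libraries held 29.2, 23.6, 28.4 and 71.4 CPM and SOD1G93A/Clec7a-KO libraries 12.5, 8.94, 21.2 and 36.6. They overlapped, and the log2 difference of -0.95 (SE 0.41, edgeR adjusted p = 0.0693) missed the threshold. It passed with 6 of the 25 alternatives, among them the block for replicate number (-0.98, edgeR adjusted p = 0.00201) and leaving out SOD1G93A/Clec7a-KO replicate 4 (-1.46, edgeR adjusted p = 0.00705).

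In ependymal cells Igfbp4 was low but rose with the transgene on the Clec7a-KO background. Levels were 3.30, 2.61, 3.06 and 4.71 CPM in Clec7a-KO and 8.77, 4.98, 12.3 and 7.48 in SOD1G93A/Clec7a-KO, without overlap. They were 2.49, 3.90 and 2.90 in SOD1G93A, and the nTg mean was 3.51. The 7.48 of SOD1G93A/Clec7a-KO replicate 4, with 28 cells, lies below the floor of 3 UMIs in that library, 11.2 CPM. The log2 fold change over Clec7a-KO was 1.35 (SE 0.30, edgeR adjusted p = 0.0251; 1.38% of genes were called higher). Over SOD1G93A it was 1.4 without overlap but not called (interval 0.65 to 2.14, edgeR adjusted p = 0.588). The call was lost under 7 of the 25 alternatives, with doublets kept (0.94, edgeR adjusted p = 0.0759), a mitochondrial share of at most 5%, sex as a factor and the omission of Clec7a-KO replicate 2 or 3 or SOD1G93A/Clec7a-KO replicate 1 or 3.

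Astrocytes gained 2 binding proteins. Igfbp7, which binds ligand weakly and is made by vessel cells, stood at 45.4, 27.4, 20.1 and 32.1 CPM in Clec7a-KO astrocytes and 288, 270, 241 and 131 in SOD1G93A/Clec7a-KO astrocytes. These did not overlap, and the log2 fold change was 2.93 (SE 0.29, interval 2.32 to 3.55, edgeR adjusted p = 1.3e-06; 18.1% of astrocyte genes were called higher). As values, nTg astrocytes held 37.6, 17.3 and 17.9 CPM and SOD1G93A astrocytes 299, 273 and 189. Vessel markers in astrocytes overlapped between the groups. The 8 endothelial markers summed to 39.3 to 171 CPM in Clec7a-KO astrocytes and 32.8 to 173 in SOD1G93A/Clec7a-KO astrocytes, and the 8 mural markers to 46.3 to 152 and 32.8 to 171. Ependymal markers in the same astrocytes summed to 71.9 to 95 and 105 to 353 CPM, and microglia markers were higher as given above. Ependymal cells themselves held 8.33 to 14.3 CPM of Igfbp7 in Clec7a-KO and 8.30 to 20.1 in SOD1G93A/Clec7a-KO, and microglia 3.97 to 10.7 and 2.12 to 7.02. The part of vessel, ependymal or microglia RNA in the result was not tested. The home of the gene was the vessel wall. Mural cells held 2702 to 6725 CPM over the 14 libraries, and their log2 fold change was 0.02 (interval -0.51 to 0.56, edgeR adjusted p = 1). In endothelial cells it was 0.25 (interval -0.18 to 0.68, edgeR adjusted p = 0.703).

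Igfbp3, the main carrier of ligand in blood, was at 1.41, 5.97, 0.387 and 2.67 CPM in Clec7a-KO astrocytes and at 25.9, 28.3, 22.7 and 0 in SOD1G93A/Clec7a-KO astrocytes. The first 3 of the latter were high, and replicate 4, with 35 astrocytes, had no UMI, so the groups overlapped. The fit gave a log2 rise of 3.41 (SE 0.64, edgeR adjusted p = 0.000507), and 4.17 without Clec7a-KO replicate 2. Only 1 of 7 libraries without the transgene reached the filter level, against 6 of 7 with it. As values, nTg astrocytes held 0.847, 0.605 and 0.236 CPM and SOD1G93A astrocytes 21.3, 16.4 and 81.0. Oligodendrocyte precursors held the most Igfbp3 among the tested classes. They went from 77.4 to 106 CPM in Clec7a-KO to 47.6 to 81.1 in SOD1G93A/Clec7a-KO (-0.42, interval -0.81 to -0.04, edgeR adjusted p = 0.197), with overlap.

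Igfbp2, an abundant binding protein of glia and cerebrospinal fluid, was highest among the tested classes in astrocytes. Its levels were 336, 354, 385 and 476 CPM in Clec7a-KO, 497, 902, 741 and 276 in SOD1G93A/Clec7a-KO, 265, 500 and 325 in nTg, and 419, 1010 and 612 in SOD1G93A. The first 2 groups overlapped, with a log2 fold change of 0.67 (interval 0.03 to 1.31, edgeR adjusted p = 0.102). It passed the threshold at a mitochondrial share of at most 5% (2.14, edgeR adjusted p = 0.000356), with no filter on low counts (edgeR adjusted p = 0.0172) and without SOD1G93A/Clec7a-KO replicate 4 (edgeR adjusted p = 0.0242). Fibroblasts held 372 to 1968 CPM of Igfbp2 by library. In microglia Igfbp2 was at 0.345 to 4.57 CPM.

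**Figure D4:**
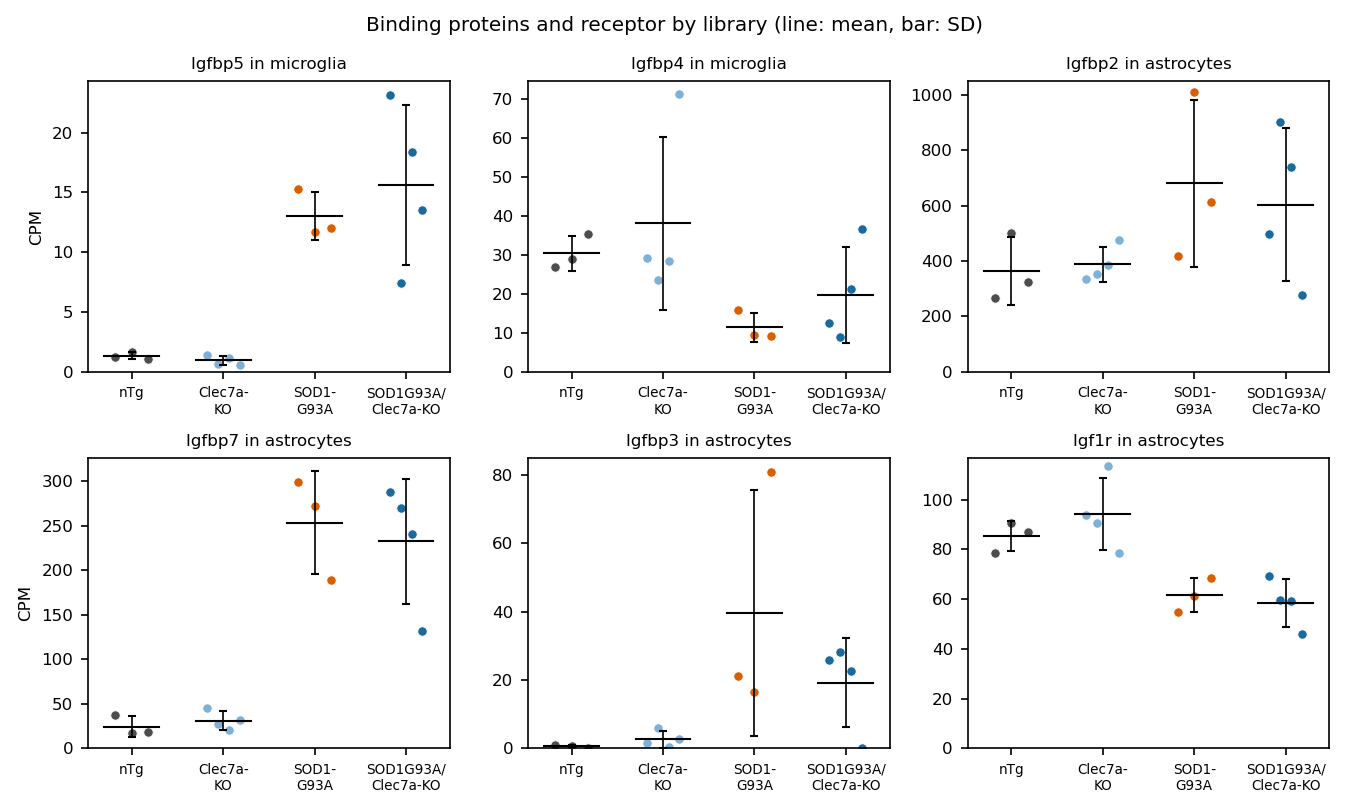
Levels in CPM of Igfbp5 and Igfbp4 in microglia and of Igfbp2, Igfbp7, Igfbp3 and Igf1r in astrocytes, with 1 point per library, a line at the group mean and a bar of 1 SD; each axis starts at 0. Igfbp5 and Igfbp7 separate the libraries by transgene (7.43 to 23.1 against 0.610 to 1.64 in microglia, and 131 to 299 against 17.3 to 45.4 in astrocytes), while Igfbp4 and Igfbp2 overlap.

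**Figure D5:**
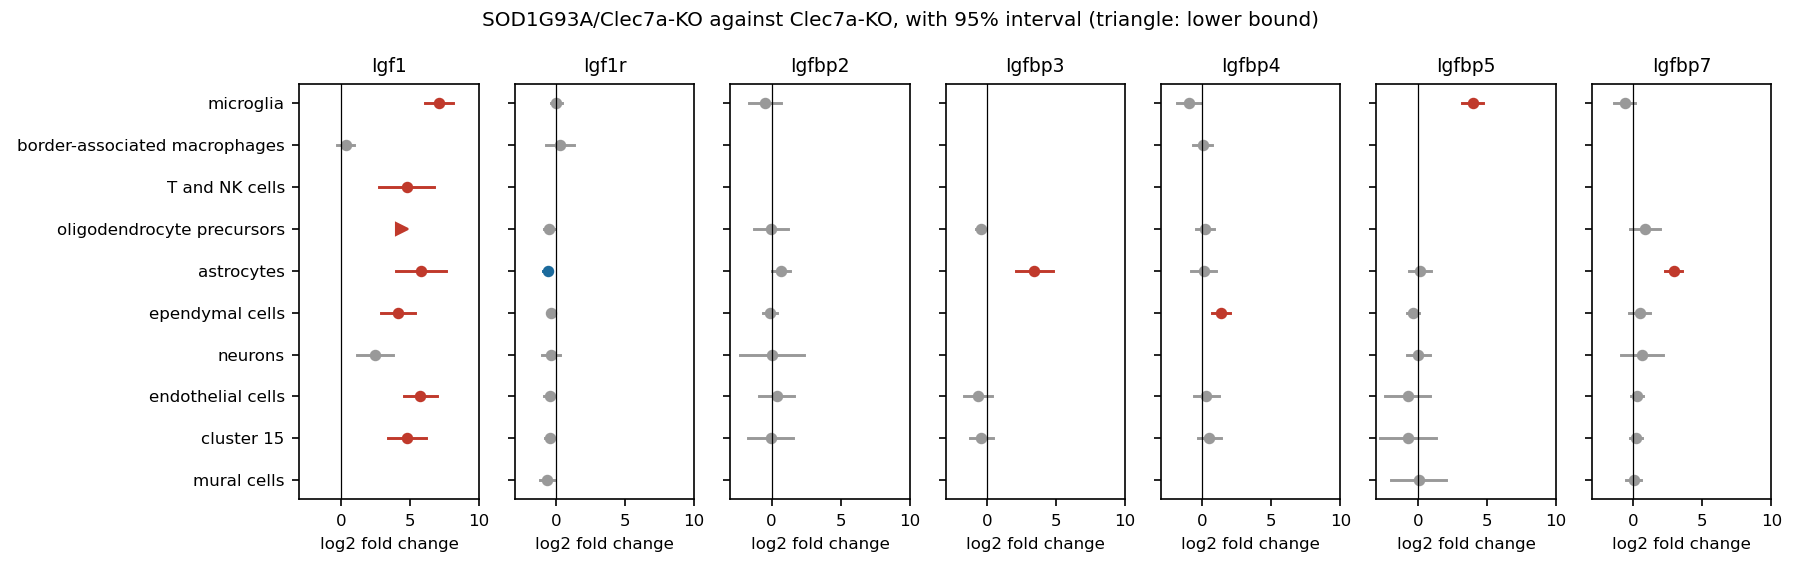
Log2 fold changes of 7 members in 10 cell classes for SOD1G93A/Clec7a-KO against Clec7a-KO, with 95% intervals; red marks pairs called higher, blue lower, grey not called, and an empty row a pair that did not pass the filter on low counts; the triangle is the lower bound (22.1-fold) of a pair whose Clec7a-KO libraries were all at 0. Red marks of Igf1 fill 7 rows, with 7.11 in microglia, while the points of Igf1r lie between -0.67 and 0.27, with 1 in blue.

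The wider pathway was read from a list of 55 other genes: further ligands, receptors and binding proteins, proteases that release ligand, the growth hormone arm, and the adaptors and kinases below the receptor. In microglia 42 of the 55 were tested between SOD1G93A/Clec7a-KO and Clec7a-KO, and 11 rose and 9 fell, with a median log2 fold change of -0.01 beside 0.00 for all genes. That is a share near the 46.5% called among all microglia genes. In astrocytes 11 of 41 rose and 8 fell (median -0.07, all genes -0.04), where 33.4% of all genes were called. Of the 27 tested adaptor and kinase genes, 5 rose and 6 fell in microglia and 5 rose and 5 fell in astrocytes. In the Clec7a contrasts, 1 of these genes was called, Adamts1 in T and NK cells of SOD1G93A/Clec7a-KO over SOD1G93A (2.42, edgeR adjusted p = 0.0445, lost under 14 of 25 alternatives), from 351 tested pairs of gene and class (0.138% over all genes), with 29 at an unadjusted p under 0.05 and 1 by DESeq2. Between Clec7a-KO and nTg edgeR called 0 of 351 (0.0136% over all genes), with 10 at an unadjusted p under 0.05 and 1 by DESeq2. Counts over all genes at the unadjusted threshold are given above for both contrasts, and no excess of listed genes is read.

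Igf2r, the scavenging receptor that also sorts lysosomal enzymes, was at 0.97, 1.4, 0.93 and 0.84 CPM in Clec7a-KO microglia and 24.4, 21.6, 14.5 and 14.1 in SOD1G93A/Clec7a-KO microglia, without overlap (4.14, SE 0.29, edgeR adjusted p = 1.3e-07). Socs2, a brake on growth hormone signalling, went from 1.51, 1.85, 1.18 and 2.29 to 15, 17.9, 20.6 and 16.1 CPM (3.36, SE 0.23, edgeR adjusted p = 9.4e-08). Igfbp6, a binding protein with a preference for Igf2, went from means of 0.692 to 5.18 CPM (2.85, SE 0.22, edgeR adjusted p = 3.5e-07). These 3 genes were named for the largest fold changes of the list in this same contrast, in which 46.5% of all microglia genes were called. Their lack of overlap therefore adds nothing to the calls. Ctsd, a lysosomal protease that can cut binding proteins, rose by 2.26 in microglia, and the matrix protease gene Mmp2 rose by 1.58. Htra1, a secreted protease of binding proteins, fell by 1.88 (edgeR adjusted p = 0.0193, lost under 1 of 25 alternatives). Its means in microglia were 9.49 CPM in Clec7a-KO and 2.50 in SOD1G93A/Clec7a-KO, while astrocytes of these groups held 1836 and 974. The part of astrocyte RNA in this fall was not tested.

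In astrocytes the listed gene with the highest fitted change was Igfbpl1, a binding protein-like gene, at 0.353, 0, 0 and 0 CPM in Clec7a-KO and 51.3, 54.6, 34.9 and 72.3 in SOD1G93A/Clec7a-KO. By counts, 206 UMIs against 2 made a ratio of 283 per class UMI (95% counting interval 77.3 to 2352), and the gene passed the filter on low counts only through the transgenic groups. As values, it was at 0.565, 0.303 and 0 in nTg and 110, 33.6 and 73.5 in SOD1G93A astrocytes. Microglia held at most 0.174 CPM of it. Socs2 rose there too (2.01, SE 0.44, edgeR adjusted p = 0.00182), as did Pik3cd (2.90, SE 0.69), a kinase subunit of leukocytes, Mmp2 (2.88, SE 0.77), Ctsd (2.88, SE 0.39) and the translation repressor gene Eif4ebp1 (2.75, SE 0.44). Microglia markers were higher in the same astrocytes, as given above, and their part in these changes was not tested. Ctsd was called higher in 10 of 10 classes, from 1.65 in border-associated macrophages to 4.58 in T and NK cells. The share of all genes called in either direction ran from 0.395% in border-associated macrophages to 46.5% in microglia. Ctsd was at 22892 CPM in SOD1G93A/Clec7a-KO microglia, 819 in endothelial cells and 818 in oligodendrocyte precursors of that group. The part of microglia RNA in the calls of other classes was not tested. The Ctsd call was lost under 3 of 25 alternatives in ependymal cells, 1 of 25 in T and NK cells and 1 of the 24 that tested it in border-associated macrophages. The astrocyte calls of Pik3cd and Mmp2 were lost under 1 of 22 and 1 of 19. The filter in astrocytes asked for 4.6 CPM in 3 libraries, and the Clec7a-KO means were 0.708 (Pik3cd) and 0.576 (Mmp2). Clec7a-KO libraries thus did not carry either gene past the filter, and both calls are no independent support. Elsewhere few of the listed genes moved. The adaptor gene Irs1 fell by 0.76 in ependymal cells (edgeR adjusted p = 0.0140, lost under 3 of 25 alternatives). Adamts1, a matrix protease gene, rose by 0.75 in oligodendrocyte precursors (edgeR adjusted p = 0.0299) and by 4.65 in T and NK cells (edgeR adjusted p = 0.0178). Both calls of Adamts1 were lost under 5 of 25 alternatives, and that in T and NK cells has the limit of the filter given above.

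Over the 25 clusters, the genes whose log2(CPM + 5) tracked that of Igf1 most closely were Rab7b (Pearson r 0.963), Lpl (0.943), Spp1 (0.929), Pld3 (0.912) and Il3ra (0.907); the clusters share libraries and depth, and r is given as a description. Over the 14 libraries, the microglia genes nearest to Igf1 in log2(CPM + 5) centred on their means were Cst7 (root mean square distance 0.318), Fabp5 (0.425), Gpnmb (0.438), Apoe (0.505) and Sod1 (0.514), against a median distance of 2.82 over 7770 genes with at least 10 CPM. Cst7, a cystatin gene, went from 18.4 ± 6.60 CPM in nTg (SD, n = 3) and 23.5 ± 9.87 in Clec7a-KO (n = 4) to 1037 ± 327 in SOD1G93A (n = 3) and 1146 ± 137 in SOD1G93A/Clec7a-KO (n = 4). Sod1, the mouse gene to which reads of the human transgene could also map, went from 66.9 ± 21.8 in nTg and 65.0 ± 23.0 in Clec7a-KO to 2102 ± 452 in SOD1G93A and 2729 ± 398 in SOD1G93A/Clec7a-KO, so the libraries separate by transgene as labelled.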

How the data were processed

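The deposited values were raw UMI counts per gene and barcode, 1 matrix per library, for 14 libraries. Cell Ranger, Seurat, DESeq2 and the mm10 build are named per the submitters' processing notes, the matrix headers give software version 3.0.2, and whether counting used strand is not given in the sources used here. Reads shared by near-identical genes could have been split. Groups, sample numbers and ages are per the labels. The members and gene lists were chosen with earlier results of these data known.

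Cells were kept from 500 genes and 1000 UMIs upward with no more than 15% of UMIs mitochondrial, which removed 7127 for depth and 4963 for mitochondrial share. A further 7046 with the highest Scrublet scores were removed as doublets, at 0.8% per 1000 barcodes. Clusters were formed from 2000 variable genes without the Igf axis and pathway genes, 30 principal components, 15 neighbours and Leiden resolution 1.0 (Python 3.11.15, scikit-learn 1.9.0, scanpy 1.11.5, scipy 1.17.1, igraph 0.11.9, anndata 0.12.19), with no integration. A cluster took the class whose markers had the highest mean fold over the lower quartile of clusters, with at least 3 markers detected and a mean fold of at least 2. It stayed unnamed where a second class passed a log2 fold of 5. The authors' own cell types were not used, so classes may differ from theirs.

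UMIs were summed per library and class where at least 10 cells were present and tested with edgeR 4.0.16 (limma 3.58.1, R 4.3.3), with TMM factors, filterByExpr and a quasi-likelihood fit of all 4 groups together, two-sided, at an adjusted p under 0.05. The SE is the absolute log2 fold change over the root of the F statistic, and intervals are 95%. SOD1G93A/Clec7a-KO replicate 4, with 5 neurons, was left out of the neuron fit. Shares of cells were compared by exact permutation after thinning to 2000 UMIs. The floor is 3 UMIs. Named genes were the 8 members in every class, the called pathway genes with the 6 largest changes per class and contrast, and the 5 genes most alike to Igf1 by each of 2 measures. Gene positions came from GRCm38, in which 54587 of 55335 identifiers matched. The 25 alternatives were DESeq2 1.42.0, RLE factors, library totals, no filter, a block for sample number, library number, sex as a factor, doublets kept, a mitochondrial share of at most 5%, clustering with the Igf genes, resolution 0.5 and 14 fits that each left out 1 library. On simulated counts of 15286 genes for SOD1G93A/Clec7a-KO against Clec7a-KO in microglia, 70% of changes of log2 size 1 and 97% of size 2 were recovered, and 0.0465% of unchanged genes were called.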

Additional observations from a re-analysis of the deposited data

Results flagged for a closer look

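In groups of 4 libraries, a single library stood apart from the other 3 for 12 of 96 combinations of member, class and group (12.5%). The gap test used has a nominal rate of 5% for independent normal values. Some values here rest on few UMIs and the combinations share libraries, so no excess is read from these rates. Most were in Clec7a-KO. Clec7a-KO replicate 1 stood highest for Igfbp2 in microglia (4.57 CPM, the others 1.03 to 1.30) and in endothelial cells (4.48, the others 1.10 to 1.67), for Igf1 in ependymal cells (0.943, from 2 UMIs, the others 0.579 to 0.608) and for Igf1 in T and NK cells (17.6, from 3 UMIs, the others 0). Clec7a-KO replicate 2 stood highest for Igf1 in astrocytes (3.98 CPM, from 8 UMIs, the others 0 to 0.353) and for Igfbp3 in cluster 15 (25.4, the others 12 to 13.7).

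Clec7a-KO replicate 4 stood highest for Igfbp4 in microglia (71.4 CPM, the others 23.6 to 29.2) and for Igfbp7 in endothelial cells (3185, the others 2125 to 2216) and in cluster 15 (3756, the others 2468 to 2545), and lowest for Igf1r in mural cells (76.2, from 31 UMIs, the others 145 to 152). Among SOD1G93A/Clec7a-KO libraries, replicate 2 stood highest for Igf1 in border-associated macrophages (143 CPM, from 23 UMIs, the others 101 to 106) and replicate 1 for Igfbp5 in cluster 15 (12.1, from 34 UMIs, the others 0.664 to 1.82).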

How the results depend on the processing

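Set against the alternative settings, 579 values kept direction and call, 13 became weaker, 7 stronger, 10 moved and 23 reversed. For SOD1G93A/Clec7a-KO against SOD1G93A, the 1 called pair became 0 with doublets kept, 6 with no filter on low counts, and 0 to 1 as single libraries were left out. For Clec7a-KO against nTg, 0 became 2 with no filter, and 0 to 0 when libraries were left out; for SOD1G93A/Clec7a-KO against Clec7a-KO, 12 became 10 to 14 then. The log2 fold change of Igf1 in microglia stayed between 6.95 and 7.27 in the last contrast when libraries were left out, between -0.14 and 0.0666 (0.03 and 0.01 without SOD1G93A replicate 2 or 3, 0.0666 without SOD1G93A/Clec7a-KO replicate 4) against SOD1G93A, and between -0.40 and 0.60 (-0.40 without nTg replicate 2, -0.02 and -0.06 without Clec7a-KO replicate 2 or 4) for Clec7a-KO against nTg. The difference in the share of microglia with an Igf1 UMI was 35.8 to 41.0 points against Clec7a-KO when libraries were left out, and -2.89 to 2.34 against SOD1G93A (0.314 and 0.929 without SOD1G93A replicate 2 or 3, 2.34 without SOD1G93A/Clec7a-KO replicate 4). It was 0.0121 against SOD1G93A at 4000 UMIs. For Clec7a-KO against nTg it was -0.35 to 0.0844 (0.0844 without nTg replicate 3), and 0.0794 at 1000 UMIs.

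Igf1r in microglia, near 0 in the transgene contrast, turned to -0.0409 with DESeq2, -0.0410 with RLE factors, -0.49 with library totals (chosen after seeing the data), -0.0588 with library number as a covariate, and -0.22 to 0.0920 when libraries were left out (-0.05, -0.22, -0.0045, -0.04 and -0.04 were the negative values). Igfbp2 in microglia, at -0.49, ran from -0.865 to 0.34 when libraries were left out, with 0.34 without Clec7a-KO replicate 1. Library totals brought Igfbp7 in microglia past the threshold (-1.14, edgeR adjusted p = 0.0109). The cause of these changes was not tested.

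Whether samples of the same number deviate together was mixed: over 19 such pairs the correlation of deviations in microglia ran from -0.33 to 0.62, with 12 of 19 over 0.1, and 4 of 14 libraries correlated best with a library of their own number, so by the rule that every pair exceed 0.1 the numbers were not taken to pair samples. With number as a block, 13, 1 and 0 pairs were called in the 3 contrasts, Igf1 in microglia was 7.11, Igfbp4 in microglia was called as given above, and Igf1r in microglia was -0.0108. Depth limits the small classes, where 10 cells or a few UMIs can carry a value, and microglia markers were found in the other classes, whose source was not tested.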
